A study of Mus musculus with 2 samples.

Results

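Microfibrils are thin extracellular filaments built from fibrillins, and elastic fibres form where elastin is laid down on them and cross-linked. In tendon these fibres are a minor component beside collagen and lie around the cells, between the fascicles and in the vessel walls. Microfibrils also bind the latent TGFβ complex through the latent TGFβ-binding proteins, which links this matrix to the signal that was removed in the mutant. The 10 genes described here were Fbn1 and Fbn2 (fibrillins), Mfap2, Mfap4 and Mfap5 (microfibril-associated proteins), Eln (tropoelastin, the precursor of elastin), Fbln1, Fbln2 and Fbln5 (fibulins, which bridge elastic fibres to other matrix) and Dpt (dermatopontin, which binds decorin and collagen fibrils). They were chosen by name and function out of 27998 counted genes, and all 10 were found in both count tables. The choice was made with earlier results of these data known. The paper had listed Dpt and Mfap5 among its top upregulated genes and Mfap4 among its top downregulated genes from these libraries. Counts of these genes beside the share of all genes are thus a description.

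Each of 2 libraries of single-cell RNA sequencing was made from the limb tendons (fore and hind, pooled) of 2 pups aged P7 (10x Genomics, in which each captured mRNA molecule is counted at its 3′ end as 1 UMI). The mutant library came from Tgfbr2 f/-;ScxCre pups. In these the TGFβ type II receptor is deleted by a Cre that Scx, a tendon transcription factor, drives. Cells outside the Scx lineage keep the floxed allele beside the null one. The paper also saw the Cre reporter in some non-tendon cells. It traced the cells of mutant tendons that had lost the Scx reporter to tenocytes. For the cells of mutant tendons that kept the Scx reporter, the paper proposes that they were newly recruited. Some of these had a weak Cre reporter or none. Mutant Scx-high cells may thus differ in origin from wild-type ones, which was not tested. Which of the cells described here were of the Scx lineage was not determined. The control library is labelled wild-type in its title and genotype and Het in its description, and is called wild-type here. All mice also carried the reporters ScxGFP and RosaT. The paper states that its Scx level took in ScxGFP and thus does not give that of endogenous Scx. The Scx classes and bins below rest on this count. The wild-type library held 2364 cells and 9451606 UMIs (median 3866.5 per cell) and the mutant library 2592 cells and 8250248 UMIs (median 2828). The 10 genes took 0.718% and 1.04% of these UMIs. The libraries shared 2 cell barcodes. With 1 library per genotype there was no spread between replicates, no test was run, batch and genotype cannot be told apart, and each interval below is a 95% interval for counting error alone.

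Cells were sorted into classes by fixed UMI rules. Scx-high cells had at least 30 Scx UMIs per 10000 UMIs and numbered 1178 (wild-type library) and 235 (mutant library). Mural cells, so named after genes of the pericytes and smooth muscle cells of vessels, had at least 5 UMIs over Rgs5, Myh11, Acta2, Notch3 and Kcnj8. They numbered 166 and 146. Scx-low fibroblasts had at least 5 UMIs over Ly6a, Cd34, Lum and Col3a1 and numbered 708 and 1821, and the other 312 and 390 cells were mostly immune and haemoglobin-rich cells. A summed level is given in CPM, the UMIs of a gene scaled to 1000000 UMIs of its class, and because each molecule is counted at its end it is not scaled to gene length. Fewer transcripts per cell and fewer cells of a kind within a class cannot be told apart in such sums.

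The class names were set against markers. These include genes that also set the classes: Scx among the tenocyte markers, and Ly6a, Cd34, Lum and Col3a1 among the fibroblast markers. Rgs5, Myh11, Acta2, Notch3 and Kcnj8 were such genes among the mural markers. The sums thus follow in part from the class rules. All 7 tenocyte markers (Scx, Tnmd, Fmod, Col1a1, Col1a2, Thbs4 and Kera) were present in every class, with a summed level of 160214 CPM in wild-type and 70843 in mutant Scx-high cells, against 21358 and 21466 in Scx-low fibroblasts. The 7 fibroblast markers summed to 764 CPM in wild-type Scx-high cells, to 5452 in mutant Scx-high cells, and to 13536 and 12829 in Scx-low fibroblasts. Col3a1 alone gave 546 of the 764 CPM and 4585 of the 5452, and 8766 and 7910 CPM in Scx-low fibroblasts. The summed level in mutant Scx-high cells thus lay between those of wild-type Scx-high cells and fibroblasts, mostly through Col3a1. The part of fibroblast markers in the results below was not tested. Of the 235 mutant Scx-high cells 25 had at least 3 UMIs of muscle genes (Myog, Myod1, Des, Actc1, Tnnt2, Mstn), against 4 of 1178 in the wild-type class. At least 5 mural UMIs were found in 56 of the 235 mutant and 48 of the 1178 wild-type cells. The 7 mural markers (those 5 genes with Cspg4 and Mcam) summed to 24568 CPM in wild-type and 11237 in mutant mural cells. Acta2 gave 20474 and 8586 of these, and 364 of 427 and 876 of 959 in wild-type and mutant Scx-high cells. Tenocyte markers summed to 9781 CPM in wild-type and 12848 in mutant mural cells. Mural cells held 26 cells with muscle UMIs in the mutant and 24 in the wild-type library. Of the cells near the Scx threshold, at 20 to 45 per 10000, there were 79 and 61. Tgfbr2 itself was at 30.9 CPM (26.2 to 36.2) in wild-type and 45.2 (33.5 to 59.8) in mutant Scx-high cells, a 3′ count that does not check a floxed exon.

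In the wild-type library the genes were highest in different cells. Among Scx-high cells, Scx-low fibroblasts and mural cells, Mfap4 and Fbn2 were highest in Scx-high cells, Mfap5, Fbn1, Fbln2, Fbln5 and Dpt in Scx-low fibroblasts, and Eln in mural cells, whereas Mfap2 and Fbln1 were spread over Scx-high cells and fibroblasts. Relative to Scx-high cells, 6 of the 10 genes were at least 2-fold higher in fibroblasts (Mfap5, Dpt, Fbln2, Fbn1, Fbln5 and Eln) and 1 was at least 2-fold lower (Mfap4). Among the 5077 genes with a mean of at least 20 CPM, 17.0% were at least 2-fold higher and 4.41% at least 2-fold lower. The median log2 ratio was 1.51 for the 10 genes and 0.42 for all genes tested. Relative to the median gene, Eln was 1.60-fold higher and Fbn2 joined Mfap4 as at least 2-fold lower, and the shares of all genes became 9.10% higher and 8.80% lower.

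**Figure D1:**
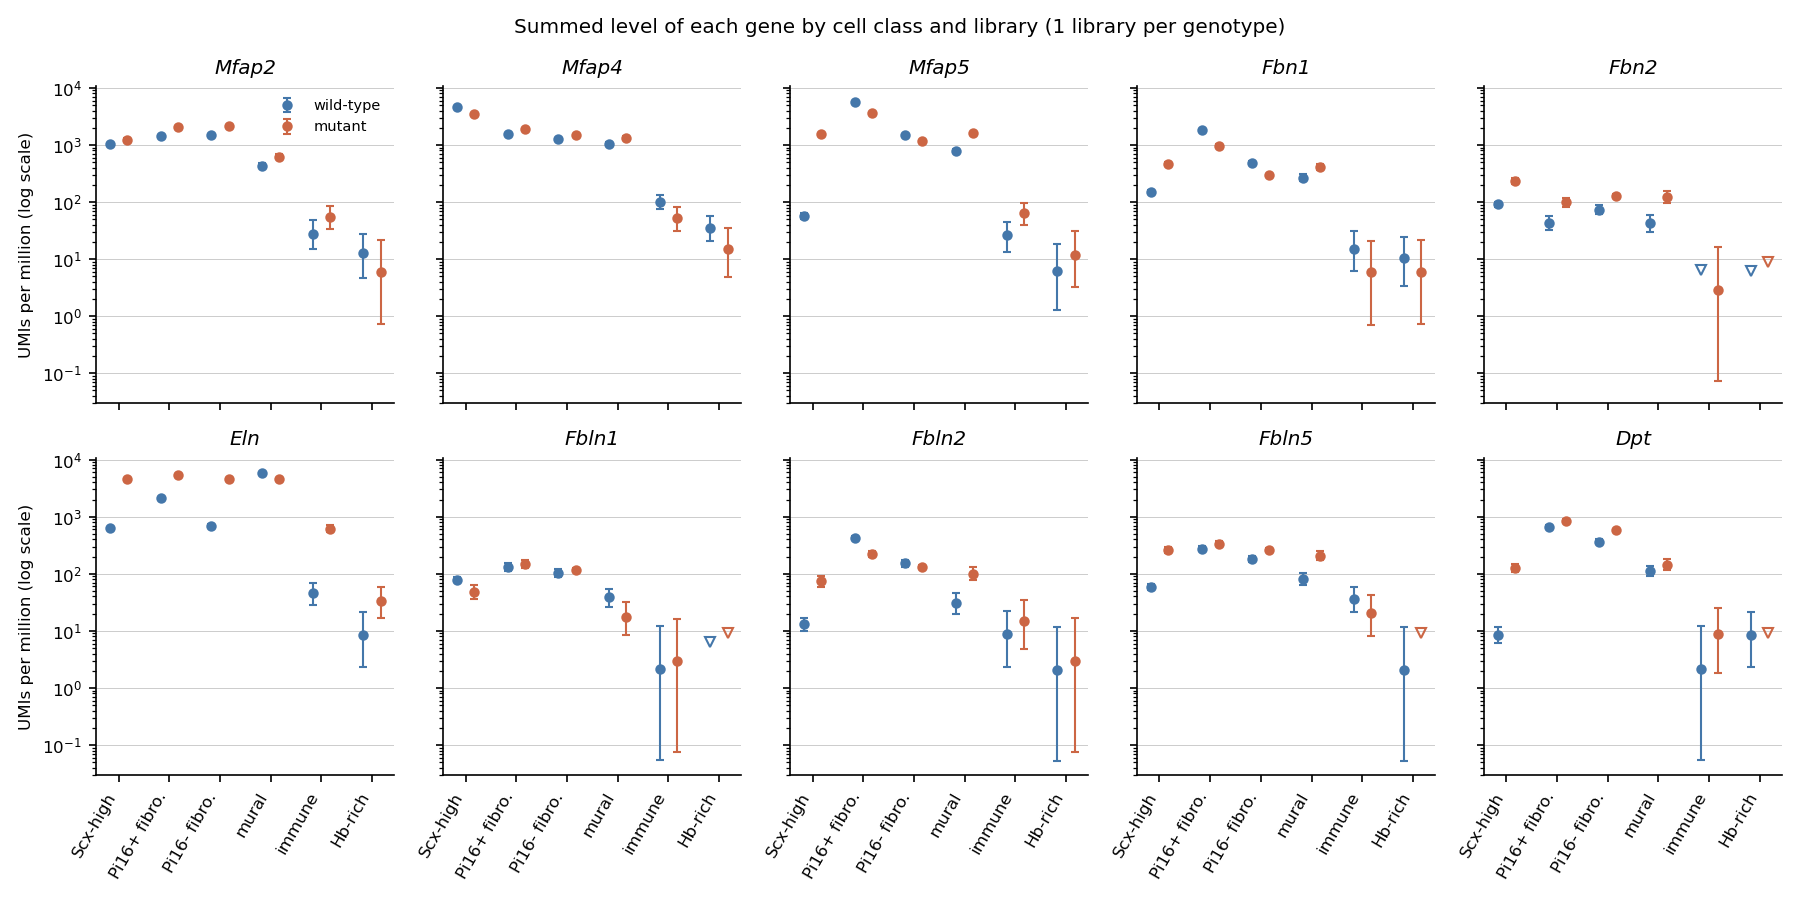
Summed level of each gene (CPM, log scale) in 6 cell classes of the wild-type (blue) and mutant (orange) library, with Scx-low fibroblasts divided by Pi16 (1 UMI or more, or none) and haemoglobin-rich cells as Hb-rich. Points are the values of 1 library, bars are 95% counting intervals, and open triangles mark the level of 3 UMIs where none was counted. Mfap5 stood at 57.6 in wild-type and 1531 in mutant Scx-high cells, whereas every gene but Eln was at or below 102 CPM in immune and haemoglobin-rich cells.

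Mfap4, a microfibril-associated protein with a fibrinogen-like domain, was the most abundant of the 10 genes in wild-type Scx-high cells, at 4654 CPM (4594 to 4715). It was at 1416 in fibroblasts and 1058 in mural cells of that library, 3.29-fold (3.17 to 3.40) and 4.40-fold (4.11 to 4.71) lower. Scx-high cells held 82.6% of all Mfap4 UMIs in the wild-type library with 52.0% of all UMIs, and 93.0% of these cells had at least 1 Mfap4 UMI, against 17.4% of haemoglobin-rich and 23.2% of immune cells of that library. Mfap4 was higher in cells with more Scx, at 2504, 4535 and 5593 CPM in cells with 30 to 100, 100 to 300 and 300 or more Scx UMIs per 10000. None of the other 9 genes had this order over the 3 bins of the wild-type library.

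Fbn2, the fibrillin most associated with developing tissue, had the same preference at a lower level, with 91.1 CPM in Scx-high cells, 60.3 in fibroblasts and 42.3 in mural cells. Fibroblasts and mural cells did not differ beyond counting error (ratio 0.702, 0.470 to 1.02). Relative to the median gene of the comparison, Fbn2 was 0.49 of its Scx-high level in fibroblasts.

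Mfap2, which binds fibrillin and is found on most microfibrils, was at 1041 CPM in Scx-high cells and 1484 in fibroblasts and was counted in 89.7% of the cells of both classes. Fbln1 was at 78.9 and 117 CPM, and neither gene reached a 2-fold difference. For both, mural cells were lowest among the 3 classes, at 432 and 38.6 CPM.

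The fibroblast genes were more sharply divided. Mfap5 (chromosome 6, 122505845 to 122529290, plus strand, GRCm38), a fibrillin-binding glycoprotein like Mfap2, was at 57.6 CPM (51.1 to 64.7) in wild-type Scx-high cells and 3438 (3368 to 3509) in fibroblasts, 59.7-fold higher (53.0 to 67.4). Dpt was at 8.54 (6.16 to 11.6) and 502 (475 to 529), 58.7-fold higher (43.2 to 81.9). Fbln2 was at 13.0 and 274 (254 to 294), 21.0-fold higher (16.3 to 27.6). At least 1 UMI was found in 14.6% of Scx-high cells for Mfap5, 2.46% for Dpt and 3.82% for Fbln2, against 79.8%, 58.5% and 48.9% of fibroblasts. In haemoglobin-rich cells, which should lack these transcripts, the same shares were 3.49%, 2.33% and 1.16% at a median depth of 5682 UMIs, against 4286 in Scx-high cells. Dpt in wild-type Scx-high cells, at 8.54 CPM, was thus at the level of haemoglobin-rich cells (8.38 CPM, 2.28 to 21.4, from 4 UMIs). It is read as background, so that each ratio of Dpt over Scx-high cells compares with background and not with a measured level. This level was not even over the class. It was 28.2, 7.21 and 4.65 CPM (14, 21 and 7 UMIs) at 30 to 100, 100 to 300 and 300 or more Scx UMIs per 10000. With a Scx limit of 15 per 10000 the ratios over Scx-high cells were 38.8 for Mfap5 and 33.8 for Dpt.

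Fbn1, the main fibrillin of postnatal microfibrils, was at 149 CPM in Scx-high cells and 1092 in fibroblasts, 7.31-fold higher (6.74 to 7.94). Fbln5, which binds tropoelastin and is needed for elastic fibre assembly, was at 59.6 and 225, 3.78-fold higher (3.28 to 4.36). In haemoglobin-rich cells 5 and 1 UMIs of these genes were counted, and the shares of cells with a UMI were 5.81% and 1.16%, against 41.3% and 18.4% of Scx-high cells.

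Within wild-type fibroblasts the levels followed Pi16, a gene of adventitial fibroblasts. The 302 cells with at least 1 Pi16 UMI had 3.83-fold more Fbn1 (1832 against 479 CPM), 3.81-fold more Mfap5 (5760 against 1512), 3.08-fold more Eln (2111 against 686) and 2.76-fold more Fbln2 (420 against 152) than the 406 cells with none. Mfap2 did not differ by Pi16 beyond counting error (ratio 0.961, 0.902 to 1.02), and Fbn2 was lower with Pi16 (ratio 0.592, 0.418 to 0.829). In the mutant library the same order was seen for Fbn1 (3.25-fold) and Mfap5 (3.11-fold), and was 1.69-fold for Fbln2 and 1.18-fold for Eln. A cell was called Pi16-positive from 1 UMI, and the median depth was 3862 UMIs with and 3360 without Pi16 for the wild-type library, and 3109 and 2804 for the mutant library.

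**Figure D2:**
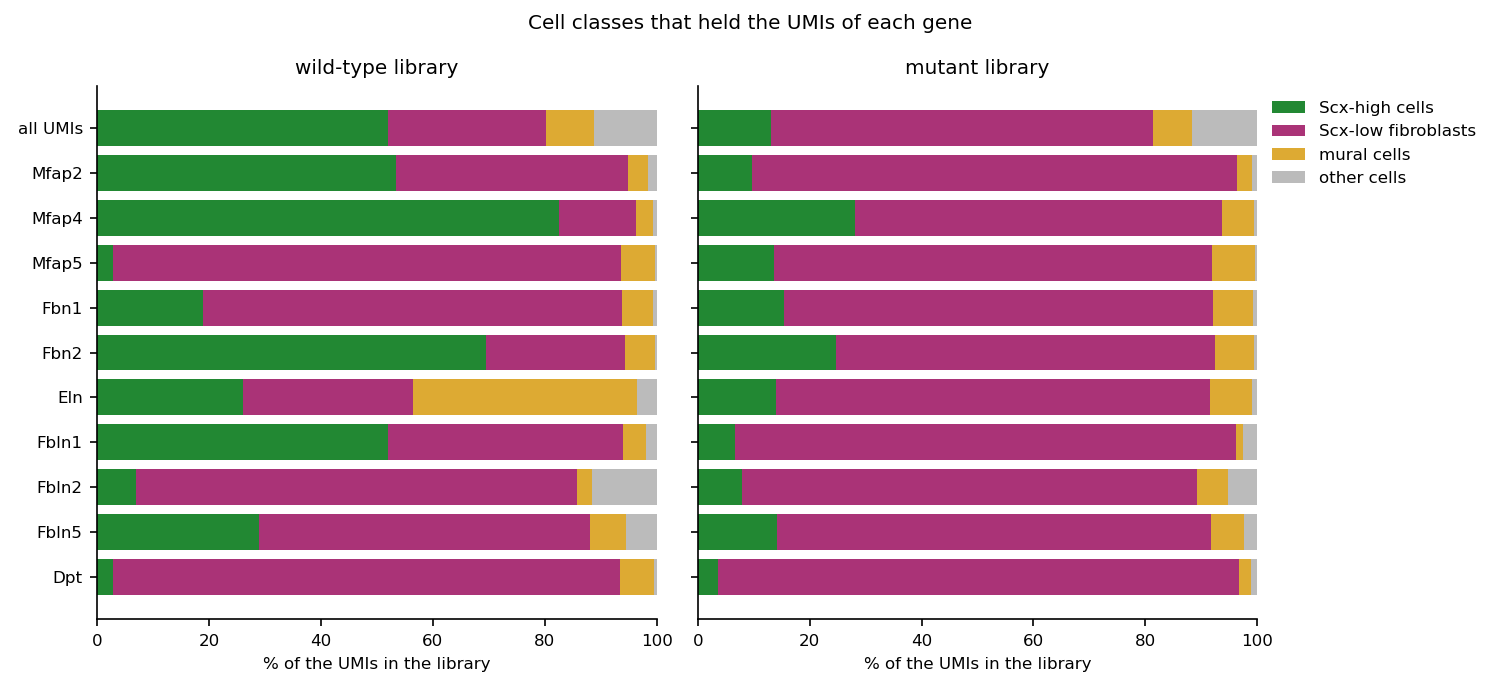
Share of the UMIs of each gene, in percent of the library, that lay in Scx-high cells, Scx-low fibroblasts, mural cells and other cells, for the wild-type (left) and mutant (right) library. The top bar gives the share of all UMIs, 52.0% in wild-type and 13.1% in mutant Scx-high cells. Wild-type Mfap4 lay mostly in Scx-high cells (82.6%), and Mfap5 (90.8%) and Dpt (90.6%) in fibroblasts.

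The question of the main comparison was which of these genes differed between Scx-high cells of the mutant and the control. In mutant relative to wild-type Scx-high cells, 7 of the 10 genes were at least 2-fold higher (Mfap5, Dpt, Eln, Fbln2, Fbln5, Fbn1 and Fbn2), none was at least 2-fold lower, and Mfap2, Mfap4 and Fbln1 were neither. Among 4837 genes tested, 11.2% were at least 2-fold higher and 3.66% at least 2-fold lower. The median log2 ratio was 1.89 for the 10 genes and 0.33 for all genes tested. This shift of 0.33 is taken off where a value is given relative to the median gene, and on that scale the count of genes at least 2-fold higher was again 7 and Fbln1 was at least 2-fold lower, while 6.12% of all genes were higher and 7.09% lower. With the 20 most abundant genes left out of the totals these shares were 7.18% and 6.39%. Fibroblast markers, muscle genes and mural UMIs differed between the classes as given above.

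**Figure D3:**
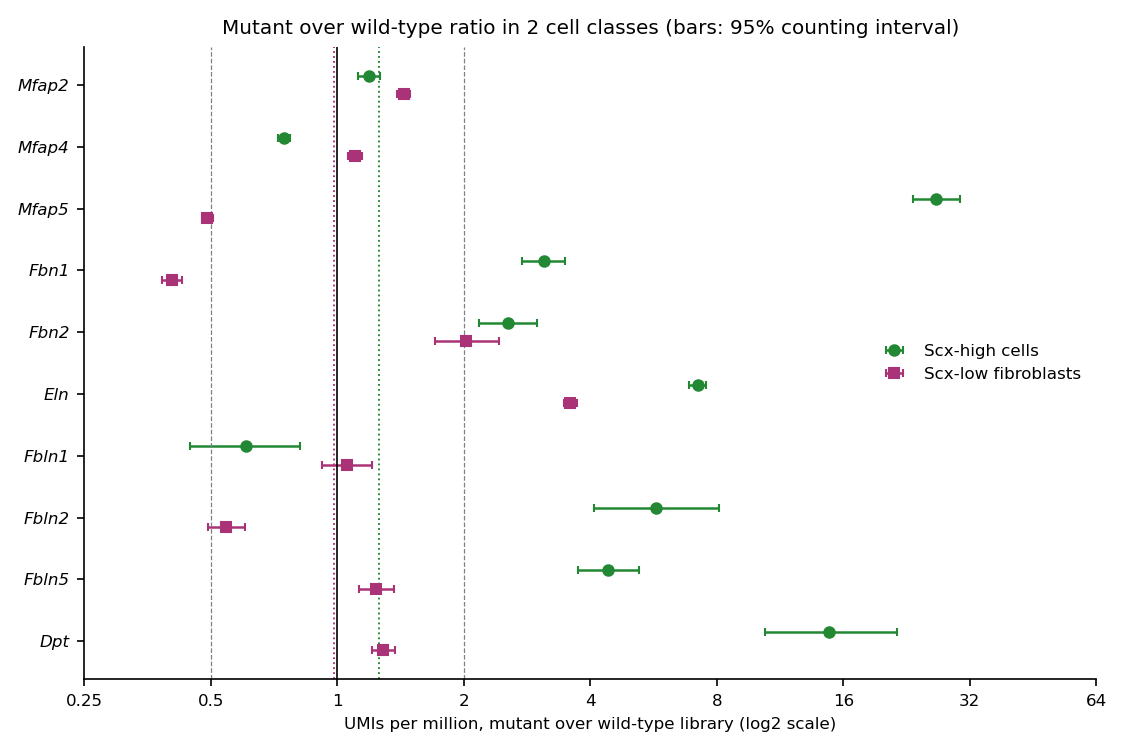
Ratio of the summed level in the mutant over the wild-type library (log2 scale) for Scx-high cells (green circles) and Scx-low fibroblasts (purple squares), with 95% counting intervals. The solid line marks no difference, dashed lines 2-fold, and dotted lines the median gene of each class. In Scx-high cells 7 genes lie right of the 2-fold line, and in fibroblasts Mfap5 (0.491) and Fbn1 (0.404) lie left of it.

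Mfap5 had the largest ratio of the 10 genes. It was at 1531 CPM (1458 to 1606) in mutant Scx-high cells, 26.6-fold higher (23.4 to 30.3) than in the wild-type class and 21.2-fold higher relative to the median gene. With a Scx limit of 15 per 10000 in place of 30 the ratio was 16.3. The share of cells with a Mfap5 UMI was 61.3% (54.7 to 67.5) against 14.6% (12.6 to 16.7), and 53.7% against 5.33% when every cell was reduced at random to 1500 UMIs, with 19 of 235 mutant and 89 of 1178 wild-type cells too shallow to be used. Mutant fibroblasts were at 1689 CPM, a ratio of 1.10 (1.05 to 1.16) over mutant Scx-high cells. The mutant level was as high in cells with the most Scx as in those with the least, with 1510, 1311 and 1756 CPM at 30 to 100, 100 to 300 and 300 or more Scx UMIs per 10000, where the wild-type library had 117, 55.6 and 41.8.

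Dpt was at 127 CPM (106 to 149), 14.8-fold higher (10.4 to 21.5) than in the wild-type class, whose level was not told apart from background. It was counted in 23.4% (18.1 to 29.3) of mutant Scx-high cells. Unlike Mfap5, it was lower in mutant cells with more Scx, with 255 CPM at 30 to 100 Scx UMIs per 10000 and 112 and 18.6 in the higher bins. It also stayed 5.10-fold (4.30 to 6.10) below mutant fibroblasts, at 645. The value of the highest bin rests on 7 UMIs in 66 cells.

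Fbln2 was at 74.8 CPM (59.4 to 93.0), 5.74-fold higher (4.09 to 8.10), and Fbln5 at 263 (234 to 296), 4.41-fold higher (3.74 to 5.21). Fbn1 was at 463 (423 to 505), 3.10-fold higher (2.76 to 3.48), and did not differ beyond counting error from mutant fibroblasts (442, ratio 0.954, 0.867 to 1.05). Fbn2 was at 233 (205 to 263), 2.55-fold higher (2.18 to 2.99), which made mutant Scx-high cells the class with the highest Fbn2 of either library. The ratio of Fbln5 was 2.68 without the Eln-rich cells described below, and the ratios of Mfap5, Dpt, Fbln2, Fbn1 and Fbn2 stayed at 25.1, 14.3, 4.32, 2.45 and 2.25. Without cells with muscle UMIs the log2 ratios were 4.81 for Mfap5, 4.07 for Dpt, 2.54 for Fbln2, 2.21 for Fbln5 and 1.71 for Fbn1, against 4.73, 3.89, 2.52, 2.14 and 1.63 with them.

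**Figure D4:**
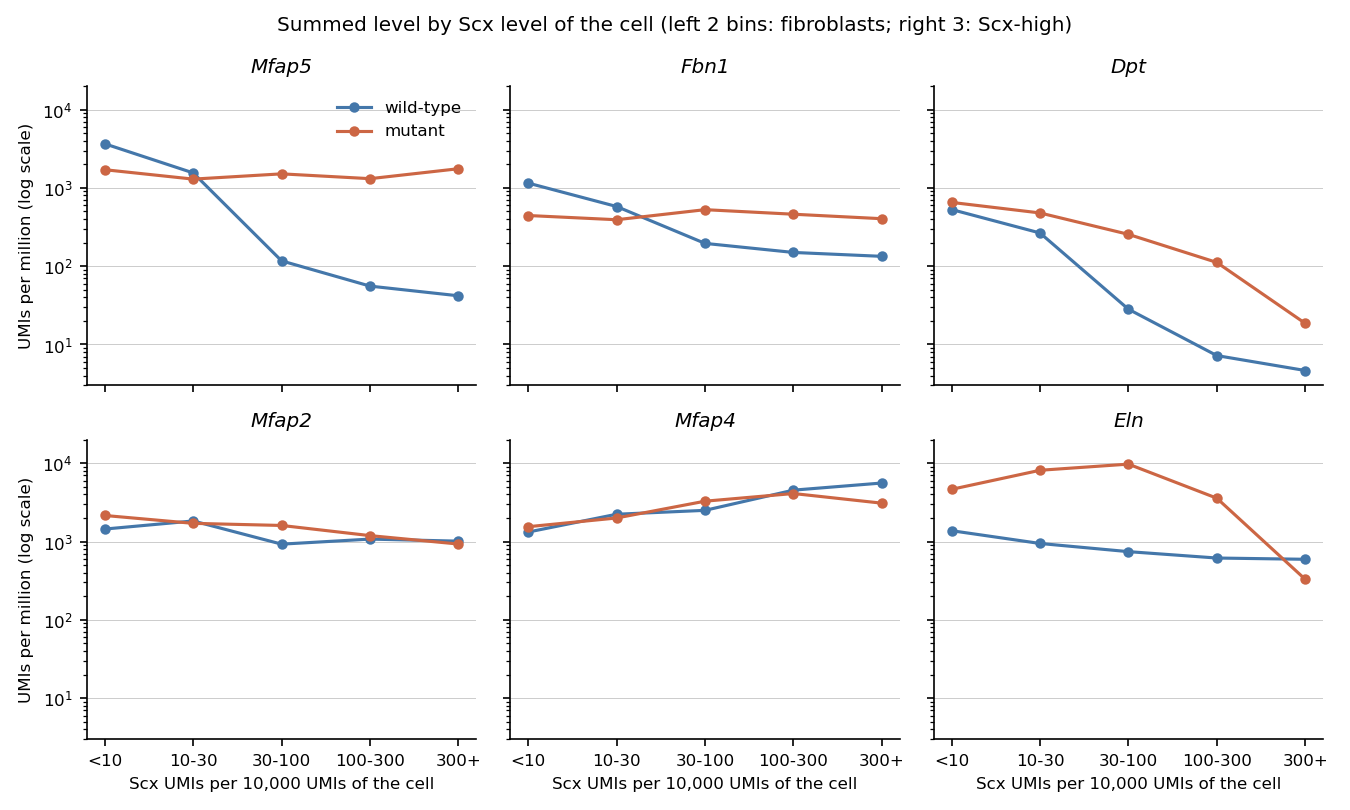
Summed level (CPM, log scale) of 6 of the genes in cells binned by their Scx UMIs per 10000, for the wild-type (blue) and mutant (orange) library. The left 2 bins are Scx-low fibroblasts and the right 3 Scx-high cells, each point is 1 library, and no interval is drawn. Mfap5 was lower from left to right in the wild-type library (3654 to 41.8) and between 1294 and 1756 in the mutant library, whereas Dpt was lower in both.

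The 3 other genes differed less. Mfap4 was at 3480 CPM (3370 to 3593) in mutant Scx-high cells against 4654 (ratio 0.748, 0.722 to 0.774), and its share of cells was 79.6% against 93.0%. Fbln1, at 48.0 (35.9 to 63.0) against 78.9, had a ratio of 0.608 (0.446 to 0.814), and 0.48 relative to the median gene. Mfap2, at 1236 against 1041, had a ratio of 1.19 (1.12 to 1.26), which turned to 0.946 relative to the median gene. None of these 3 genes was among those at least 2-fold higher in wild-type fibroblasts than in wild-type Scx-high cells. Neither was Fbn2 (ratio 0.661, 0.549 to 0.793), although it was 2.55-fold higher in mutant Scx-high cells. Both comparisons divide by the same wild-type Scx-high cells, so an overlap between their genes is in part built in.

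Sequence just before the transcription start was examined with RefSeq starts on GRCm38.p6. In these, 6 of the 10 genes had an entry (Mfap2, Fbn1, Fbln1, Fbln2, Fbln5 and Dpt). Of these, Mfap2 and Fbln1 were not among the genes at least 2-fold higher in mutant Scx-high cells. Mfap5, Eln and Fbn2, which were among them, had no entry. In the 250 bases before the start, CAGAC (a Smad-binding motif) was searched on both strands together with TGANTCA (the AP-1 motif) and CANNTG (the E-box, bound by basic helix-loop-helix factors, the class to which Scx belongs). These motifs occurred in 42.2%, 6.75% and 66.2% of 32851 promoters of this length, and AP-1 matched in none of the 6 genes. Dpt and Fbln5 are shown because they were higher in mutant Scx-high cells and Fbln1 because it was not. Capitals mark CAGAC, here read as its reverse complement GTCTG, and the E-box, and no matches overlapped one another. Dpt held 6 E-boxes and no CAGAC (chr1:164796413-164796662, plus strand, the last 19 bases within its first exon in GENCODE M21), the first of 2 Fbln5 starts 1 E-box (chr12:101819120-101819369, minus strand) and the first Fbln1 start 2 CAGAC and 1 E-box (chr15:85205699-85205948, plus strand). The second Fbln5 start, not shown, held 2 CAGAC and no E-box. Of the other entries, Fbn1 held neither motif, Fbln2 1 E-box and no CAGAC, the second Fbln1 start 2 of each, the first Mfap2 start neither and the second 1 of each. The Fbn1 and Fbln2 windows lie within annotated exons and are not shown. A match describes these letters and is not a site of binding.
Dpt: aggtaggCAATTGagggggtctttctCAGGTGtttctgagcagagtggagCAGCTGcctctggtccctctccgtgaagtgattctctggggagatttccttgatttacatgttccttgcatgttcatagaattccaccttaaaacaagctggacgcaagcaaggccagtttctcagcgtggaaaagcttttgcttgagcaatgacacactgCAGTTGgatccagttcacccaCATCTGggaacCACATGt
Fbln5: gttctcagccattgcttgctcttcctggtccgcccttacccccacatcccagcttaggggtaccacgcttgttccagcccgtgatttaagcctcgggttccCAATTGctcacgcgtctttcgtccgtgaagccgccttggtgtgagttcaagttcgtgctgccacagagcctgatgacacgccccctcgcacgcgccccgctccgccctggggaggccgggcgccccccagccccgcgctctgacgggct
Fbln1: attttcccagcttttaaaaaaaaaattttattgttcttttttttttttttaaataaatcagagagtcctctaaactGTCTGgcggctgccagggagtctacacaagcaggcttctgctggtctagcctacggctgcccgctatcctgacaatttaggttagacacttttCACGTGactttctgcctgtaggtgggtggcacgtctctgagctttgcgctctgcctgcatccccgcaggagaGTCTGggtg

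In Scx-low fibroblasts the picture was different. In mutant relative to wild-type fibroblasts 2 of the 10 genes were at least 2-fold higher (Eln and Fbn2), 2 were at least 2-fold lower (Fbn1 and Mfap5) and 6 were neither, where 2.87% and 4.23% of 5465 genes tested passed these limits. The median log2 ratio was 0.23 for the 10 genes and -0.03 for all genes. The class held 1821 of 2592 mutant and 708 of 2364 wild-type cells. The paper traced mutant tendon cells without the Scx reporter to tenocytes, and found Ly6a and Cd34, which help set this class, raised in them. Mutant and wild-type cells of this class may thus differ in origin, which was not tested.

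Fbn1 was at 442 CPM (424 to 459) in mutant and 1092 (1053 to 1132) in wild-type fibroblasts, 2.47-fold lower (2.34 to 2.61). Mfap5 was at 1689 against 3438, 2.04-fold lower (1.98 to 2.10), and Fbln2 at 149 against 274, 1.84-fold lower (1.66 to 2.03). Pi16-positive cells, in which these genes were highest, numbered 352 of 1821 mutant and 302 of 708 wild-type fibroblasts. Within Pi16-positive cells the ratios were 0.531 for Fbn1, 0.631 for Mfap5 and 0.522 for Fbln2, and within Pi16-negative cells 0.626, 0.773 and 0.857. All 3 genes were thus below 1 in both subsets, none at least 2-fold, and Fbln2 in Pi16-negative cells did not differ beyond counting error.

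The other genes were as high or higher. Mfap2 was at 2136 CPM against 1484 (ratio 1.44, 1.39 to 1.49), with ratios of 1.41 and 1.43 within Pi16-positive and Pi16-negative cells, and was counted in 95.6% against 89.7% of the cells. Dpt was at 645 against 502 (ratio 1.29, 1.21 to 1.37), and reached 1.62 in Pi16-negative cells. Fbn2, at 122 against 60.3 (ratio 2.03, 1.71 to 2.42), was 1.31-fold higher without the Eln-rich cells. Fbln1 did not differ beyond counting error (123 against 117, ratio 1.05, 0.920 to 1.21).

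The mutant fibroblasts were also split by Tnmd, a membrane protein of mature tenocytes. The 396 cells with at least 10 Tnmd UMIs per 10000 had 912 CPM of Mfap5 and 210 of Fbn1, against 1912 and 508 in the other 1425 cells, while Dpt (640 and 647), Mfap2 (2367 and 2069) and Fbln1 (128 and 122) were alike. In the wild-type library the 130 fibroblasts with Tnmd had 474 of Mfap5, 291 of Fbn1 and 206 of Dpt, against 3994, 1242 and 557 in the other 578 cells. In both libraries Mfap5 and Fbn1 were thus lower in the fibroblasts with Tnmd, and Dpt was lower with Tnmd in the wild-type library. The limit on Tnmd was chosen after the values were seen.

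Set against wild-type Scx-high cells, mutant fibroblasts had 7 of the 10 genes at least 2-fold higher (Dpt, Mfap5, Fbln2, Eln, Fbln5, Fbn1 and Mfap2) and Mfap4 at least 2-fold lower, where 16.3% and 5.25% of 5033 genes passed. Mfap5 was 29.3-fold higher (26.1 to 33.1), or 18.5-fold with a Scx limit of 15 per 10000, and Mfap4 2.97-fold lower (2.90 to 3.05). Dpt was at 645 CPM against 8.54, a level not told apart from background. The median log2 ratio was 1.90 against 0.38 for all genes, and relative to the median gene Mfap2 was 1.58-fold higher. The wild-type Scx-high cells are the same in this comparison and in the one above. Within the mutant library the classes were closer, with 2 of the 10 genes at least 2-fold higher in fibroblasts (Dpt and Fbln1), Mfap4 at least 2-fold lower and 7 neither, where 7.14% and 5.18% of 5292 genes passed, and the median was 0.12 against 0.04.

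Eln, the elastin precursor, was concentrated in few cells. Its level was 4483 CPM (4358 to 4611) in mutant and 622 (600 to 644) in wild-type Scx-high cells, 7.21-fold higher (6.89 to 7.54), and 4779 against 1332 in fibroblasts, 3.59-fold higher (3.47 to 3.72). The ratio in fibroblasts was 2.14 when fibroblasts were classed before mural cells, which also raised Eln in wild-type fibroblasts over Scx-high cells from 2.14-fold to 3.65-fold, and that in Scx-high cells was 4.55 with a Scx limit of 60 per 10000, at which mutant fibroblasts over mutant Scx-high cells went from 1.07 to 1.81. The share of cells with an Eln UMI went the other way, at 41.7% (35.3 to 48.3) in mutant and 72.5% in wild-type Scx-high cells and 33.9% against 52.7% in fibroblasts. With cells reduced to 1500 UMIs the shares were 32.4% and 47.8% in Scx-high cells and 27.3% and 35.2% in fibroblasts. The ratio in Scx-high cells did not hold at every Scx level. At 30 to 100, 100 to 300 and 300 or more Scx UMIs per 10000, Eln was at 9748, 3580 and 329 CPM in the mutant library. The wild-type library had 743, 616 and 594, so that Eln was lower in the mutant cells with the most Scx (124 UMIs in 66 cells).

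Cells with at least 30 Eln UMIs per 10000, called Eln-rich here by a limit chosen after the values were seen, made up 34 of 235 mutant Scx-high cells (14.5%, 10.2 to 19.6) and 16 of 1178 wild-type ones (1.36%, 0.778 to 2.20). In fibroblasts they numbered 257 of 1821 (14.1%, 12.5 to 15.8) and 59 of 708 (8.33%, 6.40 to 10.6). They held 95.2% of the Eln UMIs of mutant Scx-high cells and 97.0% of those of mutant fibroblasts. In 16 mutant Scx-high cells Eln reached at least 300 per 10000, and these cells alone held 75.2% of the Eln UMIs of the class. Just inside and outside the limit, at 30 to 45 and 20 to 30, there were 24 and 32 mutant fibroblasts.

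Leaving out the Eln-rich cells removes cells by their Eln itself, and took away 95.2% of the Eln UMIs of mutant and 13.8% of those of wild-type Scx-high cells, and 97.0% and 77.9% in fibroblasts. Eln was then at 252 CPM in mutant and 543 in wild-type Scx-high cells (ratio 0.465, 0.405 to 0.532) and at 176 and 322 in fibroblasts (ratio 0.545, 0.494 to 0.603). These ratios follow in part from the filter and are given as a description. Without the same cells Mfap4 and Fbln5 also turned in fibroblasts, to ratios of 0.626 and 0.651 from 1.11 and 1.24. Fbn1, Mfap5 and Fbln2 were at ratios of 0.294, 0.346 and 0.461 in fibroblasts without them.

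**Figure D5:**
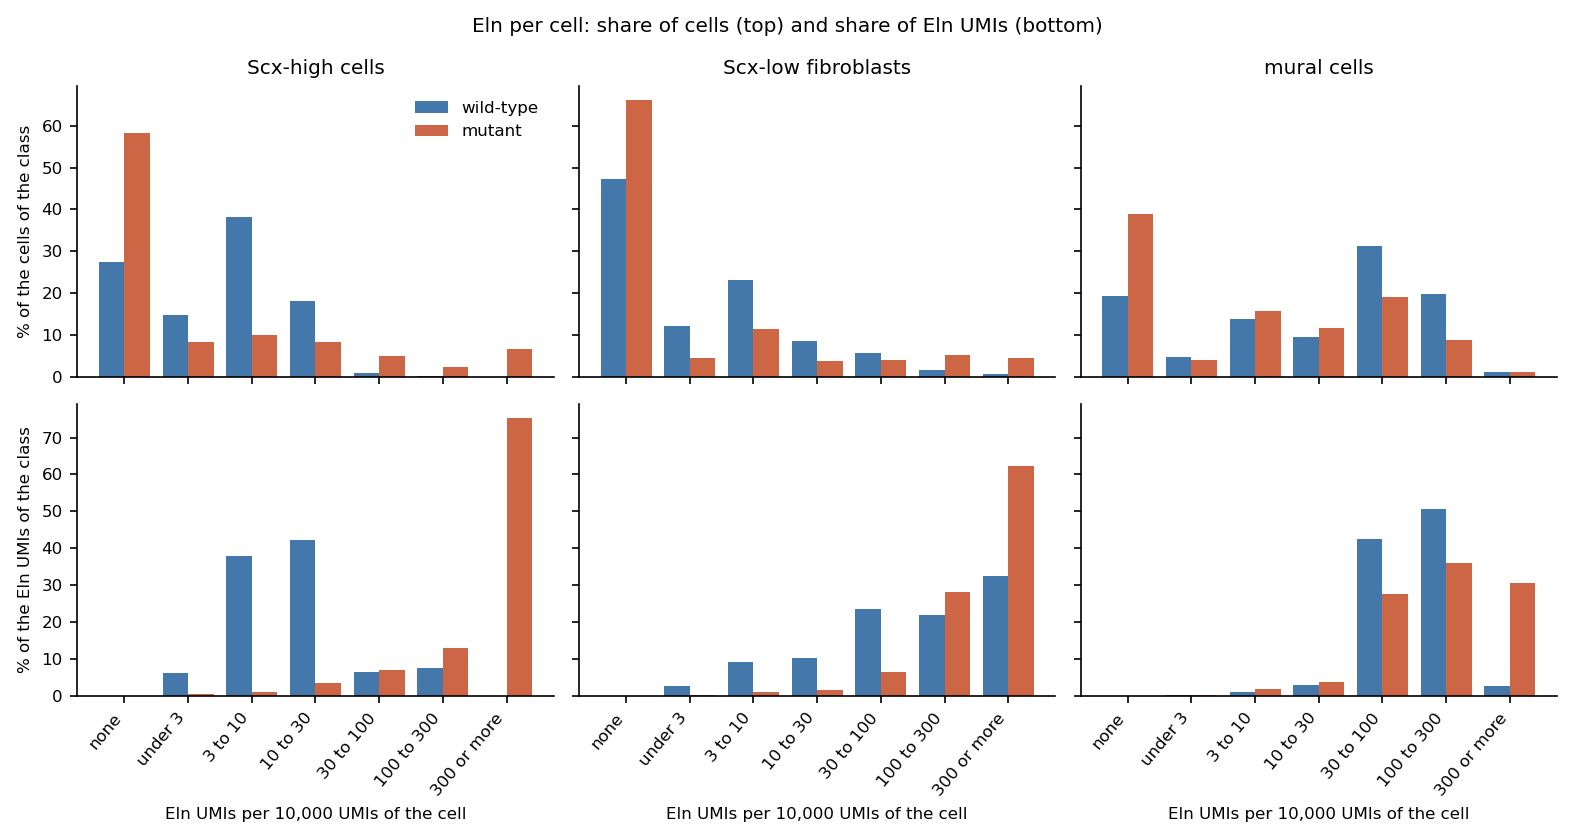
Cells by their Eln UMIs per 10000 in Scx-high cells, Scx-low fibroblasts and mural cells of the wild-type (blue) and mutant (orange) library, as percent of the cells of the class (top) and as percent of the Eln UMIs of the class (bottom). Mutant Scx-high cells with none made up 58.3%, and the 16 cells at 300 or more held 75.2% of the Eln UMIs.

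The Eln-rich fibroblasts of the mutant library carried more of the elastic fibre genes as well. Relative to the other mutant fibroblasts they had 1013 against 112 CPM of Fbln5, 5592 against 648 of Mfap4, 4131 against 1133 of Mfap5, 1046 against 304 of Fbn1 and 323 against 76.5 of Fbn2. Lox, the enzyme that cross-links elastin and collagen, was 9.69-fold higher (8.64 to 10.9), Loxl1 at 982 against 326, and Ltbp2 at 139 against 5.45. Dpt went the other way, at 338 against 716, and Mfap2 (2490 and 2055) and Fbln1 (158 and 115) differed little. Of the genes that set the class, Ly6a (433 against 1118), Cd34 (287 against 725) and Lum (2192 against 3045) were lower. Col3a1 (8011 and 7887) differed little. Of the tenocyte markers, Kera was at 53.6 against 718, whereas Scx was higher (208 against 133, ratio 1.56, 1.33 to 1.83). Tnmd (949 and 979) and Col1a1 (10601 and 11408) differed little. Outside the fixed lists, and chosen after their values were seen, Col8a1 was at 1157 against 44.9 and C1qtnf3 at 3492 against 250. Of the smooth muscle genes, Tagln was at 395 against 37.0 CPM (10.7-fold, 8.90 to 12.8), Acta2 at 93.7 against 24.4 (3.84-fold, 2.90 to 5.08) and Rgs5 and Myh11 were counted with 5 and 1 UMIs against 2 and 3. Acta2 was at 20474 CPM in wild-type mural cells, and called doublets numbered 2 of 257. Cells with at least 5 UMIs over Rgs5, Myh11, Acta2, Notch3 and Kcnj8 had been classed as mural first. Low counts of Acta2, Rgs5 and Myh11 in fibroblasts thus follow from the class rule. The part of mural RNA in these values was not tested.

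Eln-rich fibroblasts of the wild-type library were higher in part of the same genes. Relative to the other wild-type fibroblasts they had 5.15-fold more Mfap4, 4.46-fold more Fbln5, 3.61-fold more Lox and 2.16-fold more Loxl1. Col8a1 was 8.87-fold and C1qtnf3 7.22-fold higher. Mfap5 and Fbn1 were 1.58-fold and 1.64-fold higher, and Dpt was 1.59-fold higher, unlike in the mutant library. Fbn2 (ratio 1.38, 0.805 to 2.23), Ltbp2 (1.21, 0.312 to 3.39) and Tagln (1.15, 0.596 to 2.05) did not differ beyond counting error. Acta2 was lower (ratio 0.431, 0.171 to 0.908). Unlike in the mutant library, Ly6a (1.30-fold), Lum (1.62-fold) and Col3a1 (1.52-fold) were higher in these wild-type cells. Cd34 (ratio 1.09, 0.941 to 1.25), Kera (0.828, 0.619 to 1.09) and Scx (0.823, 0.652 to 1.03) did not differ beyond counting error. Tnmd was lower in these wild-type cells (232 against 1302 CPM, ratio 0.178, 0.134 to 0.233), and Col1a1 had a ratio of 1.10 (1.06 to 1.15). The 16 Eln-rich wild-type Scx-high cells, of which 2 were called doublets, had 10571 CPM of Acta2, 4996 of Tagln and 546 of Myh11, against 233, 20.8 and 1.85 in the other Scx-high cells, and an Eln level of 6795. The 34 in the mutant library had 707 CPM of Acta2, 1060 of Tagln and 165 of Rgs5, against 907, 1092 and 8.71 in the other mutant Scx-high cells, and an Eln level of 28173. In wild-type fibroblasts 44 of 59 Eln-rich cells were Pi16-positive, against 72 of 257 in the mutant library.

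Mural cells of the wild-type library had more Eln than its Scx-high cells and fibroblasts, at 5859 CPM (5693 to 6029), and held 40.2% of all its Eln UMIs from 8.51% of all UMIs. Eln-rich cells made up 87 of these 166 cells (52.4%, 44.5 to 60.2). In mutant mural cells Eln was at 4537 (ratio 0.774, 0.738 to 0.812), with 43 of 146 cells Eln-rich (29.5%, 22.2 to 37.6). The ratios of the other genes in mural cells were 3.24 for Fbln2 (2.00 to 5.41), 2.88 for Fbn2 (1.88 to 4.47), 2.54 for Fbln5 (1.87 to 3.48), 2.09 for Mfap5 (1.89 to 2.32, and 1.93 relative to the median gene), 1.53 for Fbn1, 1.44 for Mfap2, 1.27 for Mfap4 and Dpt and 0.451 for Fbln1 (0.197 to 0.943, from 10 UMIs against 31). At least 5 fibroblast UMIs were found in 76 of 146 mutant and 119 of 166 wild-type mural cells, and muscle genes summed to 1628 CPM in the former and 315 in the latter, and their part in these ratios was not tested.

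Endothelial cells were few, at 15 and 20, but in the wild-type library held 102 of the 107 Fbln2 UMIs of the other cells. Fbln2 was at 1933 CPM in wild-type (102 UMIs) and 584 in mutant (33 UMIs) endothelial cells, above every other class of the same library. Eln was at 6917 (365 UMIs) and 920 (52 UMIs) in these cells. In immune cells all 10 genes were at most 102 CPM in the wild-type library, and in the mutant library all but Eln, at 620, were at most 64.3. That Eln value came from 212 UMIs, with a UMI in 8.24% of 182 cells.

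Whole libraries gave a different account from single classes. Over all cells 3 of the 10 genes were at least 2-fold higher in the mutant library (Eln 3.39-fold, Dpt 3.02-fold and Fbln5 2.28-fold), none was lower and 7 were neither, where 4.64% and 2.78% of 5216 genes passed, with medians of 0.60 and 0.20, and Fbln5 was 1.99-fold higher relative to the median gene. Without Eln-rich cells the log2 ratio of Eln was -1.21. Dpt alone was then at least 2-fold higher and Eln and Mfap4 at least 2-fold lower, where 5.51% and 2.93% of 5191 genes passed. Fbn1 had a ratio of 0.955 over the whole libraries, from 3.10 in Scx-high cells and 0.404 in fibroblasts. Mfap4 had 0.556 (0.544 to 0.567) from 0.748 and 1.11. Scx-high cells held 82.6% of its UMIs in the wild-type library and 28.1% in the mutant library, where fibroblasts held 65.7%. This class made up 49.8% of wild-type and 9.07% of mutant cells. The part of class make-up in these ratios was not tested.

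Other genes of microfibrils, elastic fibres and their matrix were taken as a list of 32 (latent TGFβ-binding proteins, emilins, other fibulins, lysyl oxidases, ADAMTS proteins and partners). In Scx-high cells 19 passed the level of 20 CPM, of which 6 were at least 2-fold higher and 2 at least 2-fold lower in the mutant library, with a median log2 ratio of 0.42, beside 11.2% and 3.66% of all genes and a median of 0.33. Ltbp2, which binds fibrillin and fibulin-5, had 156 UMIs (144 CPM) against 4 (0.814), a ratio of 177 with a wide interval (67.8 to 658). Loxl1, a lysyl oxidase of elastic fibres, was at 365 against 53.7 CPM (6.79-fold), Fn1 (fibronectin, on which microfibrils assemble) at 2917 against 491 (5.94-fold) and Fbln7 at 51.7 against 12.8 (4.03-fold). Lower were Dcn (decorin), at 5852 against 12985 (2.22-fold lower), and Loxl2, at 199 against 417 (2.09-fold lower).

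In Scx-low fibroblasts 26 of the 32 passed, of which 3 were higher and 4 lower, with a median log2 ratio of 0.01, beside 2.87% and 4.23% of all genes and a median of -0.03. Fbln7 was at 52.0 against 16.1 CPM (3.23-fold higher), Lox at 248 against 104 (2.39-fold) and Ltbp2 at 30.2 against 14.2 (2.12-fold). Hmcn1 (8.87 against 36.7), Adamtsl5 (11.5 against 41.5), Emilin2 (44.2 against 138) and Efemp1 (42.8 against 99.5) were lower. The Lox and Ltbp2 values included the Eln-rich cells, which held 962 of 1398 Lox and 145 of 170 Ltbp2 UMIs.

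Genes with the pattern most like that of a member were sought over 16 groups of cells (8 classes in each of the 2 libraries, whose groups share a library and its depth), by Pearson's r of log2 levels among 2729 genes, up to 3 for each member. The fibrillins were closest to Srpx2 (0.99), Plod2 (0.97) and Cpxm1 (0.96) for Fbn2 and to Fstl1 (0.95), Col5a2 (0.93) and Ccdc80 (0.92) for Fbn1. Mfap2 was closest to Ccdc80 (0.97), Hoxa10 (0.96) and Ikbip (0.96), Mfap4 to Angptl2 (0.98), Thbs3 (0.97) and Col16a1 (0.96), and Mfap5 to Aspn (0.95), Col5a1 (0.92) and Serping1 (0.92). For Eln, Mfge8 (0.87) and Fn1 (0.86) were among the closest. For the fibulins these were Bicc1 (0.98), Angptl1 (0.96) and Lpar1 (0.96) for Fbln1, Ly6c1 (0.91), Arl4a (0.89) and Plvap (0.89) for Fbln2, and Il6st (0.96), Dst (0.95) and Arl4a (0.95) for Fbln5. Dpt was closest to Scara3 (0.96), Loxl1 (0.95) and Col3a1 (0.94). Between members, r was highest for Mfap4 and Fbn2 (0.90) and lowest for Mfap4 and Fbln2 (-0.05). These values describe the groups and carry no test.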

How the data were processed

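Cells of 1 wild-type and 1 mutant library were compared. The authors deposited raw UMI counts per gene and cell barcode (Cell Ranger 1.2.0 per the labels, mm10), and all deposited barcodes were used. Cells were classed in the order Scx-high, mural, Scx-low fibroblasts, other. The limit for mural cells was set here. Counts were summed per class and scaled to CPM. Ratios carry exact conditional and shares exact binomial (Clopper-Pearson) intervals at 95%, and where 0 UMIs were counted the level of 3 UMIs is the upper limit. Genes with a mean of at least 20 CPM entered a comparison, and at least 2-fold was the limit for higher or lower. The members and lists were chosen with earlier results of these data known. All 10 members are named, with up to 4 related genes in each direction per class and the 3 genes most like each member, of which 1 is not reported here. Limits on Eln, Tnmd and muscle genes, and Col8a1, C1qtnf3 and Tagln, were chosen after values were seen. Doublets (scanpy 1.11.5) were called in 26 wild-type and 8 mutant cells (0.309%) and kept, and cells of high depth may still be doublets. NumPy 2.4.6, SciPy 1.17.1 and pandas 2.3.3 were used, and the scripts were tested on simulated data.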

Additional observations from a re-analysis of the deposited data

Results flagged for a closer look

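For 4 genes the counting intervals of the mutant over wild-type ratio lay on opposite sides of 1 in the 2 main classes. The values of Fbln1 did so too (0.608 and 1.05), but its interval in fibroblasts spanned 1. The difference between the classes was not tested, since each genotype had 1 library. Mfap5 had a ratio of 26.6 in Scx-high cells and 0.491 in Scx-low fibroblasts, Fbn1 3.10 and 0.404, and Fbln2 5.74 and 0.545. Mfap4 had 0.748 and 1.11, and its ratio in fibroblasts was 0.626 without Eln-rich cells.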

How the results depend on the processing

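No paired analysis was possible because each genotype had 1 library. Under the settings planned beforehand, 152 of 162 recomputed counts of members at least 2-fold higher or lower stayed within 1.5 times the reported count. Of 780 log2 ratios of single members under these settings, 632 stayed within their counting interval and 148 moved beyond it. The sign changed in 7 of the 780, each with a reported log2 ratio of at most 0.25 in size. A further 3 settings were added later. They left out Eln-rich cells, cells with muscle UMIs, or Scx-high cells with mural UMIs. Under these, 121 of 180 log2 ratios stayed within their counting interval. The sign changed in 13, with reported log2 ratios of up to 2.94 in size. With an Scx limit of 60 per 10000, 1 gene (Fbln1) was lower in mutant Scx-high cells and 1 (Fbn1) in mutant fibroblasts, beside 3.91% and 4.19% of all genes. The count lower in fibroblasts was also 1 (Fbn1) with fibroblasts classed before mural cells, with a mural limit of 10 UMIs and when centred on the median gene. The shares of all genes were 4.47%, 4.22% and 4.04%. Centring also gave 1 gene lower in Scx-high cells (Fbln1), 2 lower in wild-type fibroblasts than in Scx-high cells (Fbn2, Mfap4) and 1 lower over whole libraries (Mfap4). Beside these stood 7.09%, 8.80% and 3.87% of all genes. With a mean over cells, 1 was higher in fibroblasts (Eln) and 1 lower over whole libraries (Mfap4), beside 2.67% and 2.90% of all genes. Leaving out Eln-rich cells, chosen after seeing the data, turned the log2 ratio of Eln to -1.10 in Scx-high cells, -0.87 in fibroblasts, -0.75 for wild-type fibroblasts over Scx-high cells, -1.63 for mutant fibroblasts over wild-type Scx-high cells and -1.21 over whole libraries. Then 1 gene was lower in Scx-high cells (Eln, beside 4.06% of all genes) and 0 were higher in fibroblasts (beside 3.08%). In mutant fibroblasts 2 were lower than in mutant Scx-high cells (Fbn2 and Mfap4, beside 6.57%) and 2 than in wild-type ones (Eln and Mfap4, beside 6.08%). Over whole libraries 1 was higher (Dpt, beside 5.51%) and 2 lower (Eln and Mfap4, beside 2.93%). Leaving out cells with muscle UMIs, also added later, gave 2 lower in mutant fibroblasts than in mutant Scx-high cells (Fbn2, Mfap4), beside 5.34% of all genes. The turned Eln values follow in part from leaving out cells by Eln itself, and the cause of the other changes was not tested. Depth limits the low values most: Dpt and Fbln2 in wild-type Scx-high cells rest on 42 and 64 UMIs, and Fbln1 in mutant Scx-high cells on 52.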
